A study of Mus musculus with 18 samples.

Results

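The 39 genes described here encode proteins that copy the genome or open S phase, and their transcripts were followed through 4T1 mouse mammary carcinoma cells and their 17-DMAG-resistant descendants. They were taken from the table of counts by gene symbol, 39 of the 24421 genes listed, and every member had counts in every library, the lowest being 188. The gene Dbf4, a partner of the kinase Cdc7, was left out because it lies in a chromosomal region with raised counts in the resistant cells. Apart from that exclusion the rule uses symbols and no measured value, but the members were chosen with earlier results of these data known.

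Replication begins when the origin recognition complex, Cdc6 and Cdt1 load the MCM helicase on DNA in G1, a step called licensing that geminin (Gmnn) blocks later in the cycle. The kinase Cdc7 and the proteins Cdc45, Mcm10 and GINS then switch the helicase on, and primase, DNA polymerases, the sliding clamp Pcna, its loader RFC and the ligase Lig1 copy both strands. Many of these genes are known targets of E2F transcription factors, which the retinoblastoma protein restrains until cyclin-dependent kinases release them, so their transcripts are commonly used as a readout of cells passing from G1 into S phase.

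The cells were 4T1, a mammary carcinoma line from BALB/cfC3H mice, wild type in genotype by its labels, and 4T1R1 and 4T1R2, populations of survivors selected independently from 4T1 with 17-DMAG, an inhibitor of the chaperone HSP90. They are mixed populations and not clones, and the sources differ on the selection schedule. For each of the 3 populations, 3 libraries came from untreated cells and 3 from cells given 17-DMAG at 1.5 µM, which makes 6 groups. The sample records give 48 h for this exposure and the description of the series gives 2 h, and the difference could not be settled here. Total counts ran from 23354461 to 55094630 per library. In 4T1 given 17-DMAG, replicates 1 and 2 differed by little more than their sampling noise and by far less than any other replicate pair. The pair was therefore averaged into 1 sample, and n was 2 there and 3 elsewhere. Library names placed 4T1R1 in a series of numbers apart from 4T1 and 4T1R2, and no source used here says what this series marks. Whatever it marks cannot be told apart from the population where untreated 4T1R1 is set against either, whereas each 17-DMAG comparison lies within a population. The difference in response between 4T1R1 and 4T1 sets a change within one series against a change within the other. Mammary epithelial markers were present (8 of 8 genes, summed level 51840 to 78660 normalized counts), leukocyte markers were near 0 (6 of 6 genes under 100 normalized counts in every library, summed level 7.61 to 23.5), endothelial markers were also low (4 of 4 under 100, summed level 8.64 to 40.9), and of the fibroblast markers 5 of 6 stayed under 100 with Lum at 0 (summed level 399 to 1043). Exons of 8 members overlap those of another gene on the other strand, namely Fen1, Gins2, Mcm7, Orc6, Rfc2, Rfc4, Rfc5 and Tk1, and whether the counting used strand is not given in the sources used here, so their reads and those of the neighbour cannot be told apart. The neighbour stood far above the member for Rfc4 (mean of 906 normalized counts, against 11745 for Eif4a2) and for Orc6 (1953, against 7714 for Vps35).

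Promoter sequence shows which members carry the letters that E2F factors are known to bind. The RefSeq table of GRCm38.p6 promoters, from 250 bases before to 50 bases after an annotated start, held 38 promoters of 32 members, and none for Gmnn, Mcm4, Gins1, Gins2, Rfc2, Prim2 and Pole. The letters searched on both strands were TTTCCCGC, TTTGGCGC, TTTCGCGC and TTTGCCGC for E2F and CCAAT for the factor NF-Y, with overlapping matches counted separately. Only exact matches were counted, so a promoter without E2F letters here may still hold a near match. The 250 bases before the start of Mcm5 and Mcm6 are shown because each holds a pair of overlapping E2F matches near CCAAT. Those of Rrm2 are shown because that gene changed strongly with CCAAT and no exact E2F match. Capitals mark E2F letters and CCAAT or its reverse complement, and the last bases of the Rrm2 window lie in its first exon in the GENCODE annotation.
Mcm5, chr8:75109259-75109508, plus strand: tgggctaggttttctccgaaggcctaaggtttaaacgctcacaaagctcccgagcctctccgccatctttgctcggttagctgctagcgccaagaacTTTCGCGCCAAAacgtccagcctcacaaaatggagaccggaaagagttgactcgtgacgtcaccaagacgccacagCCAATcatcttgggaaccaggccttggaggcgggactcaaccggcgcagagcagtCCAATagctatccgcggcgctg
Mcm6, chr1:128359706-128359955, minus strand: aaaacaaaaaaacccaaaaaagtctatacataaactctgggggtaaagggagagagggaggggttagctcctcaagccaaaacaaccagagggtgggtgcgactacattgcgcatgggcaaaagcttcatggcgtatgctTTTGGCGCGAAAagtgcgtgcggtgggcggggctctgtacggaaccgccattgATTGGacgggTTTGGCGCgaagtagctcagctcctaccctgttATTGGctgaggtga
Rrm2, chr12:24708004-24708253, plus strand: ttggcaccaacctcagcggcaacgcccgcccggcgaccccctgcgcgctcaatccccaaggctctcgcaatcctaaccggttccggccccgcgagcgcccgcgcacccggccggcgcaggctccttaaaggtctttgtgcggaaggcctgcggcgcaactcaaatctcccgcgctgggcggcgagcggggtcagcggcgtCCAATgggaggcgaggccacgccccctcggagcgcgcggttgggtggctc

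Shorter windows, with the E2F letters in capitals and up to 11 bases on either side, are shown for the 5 members that hold these letters among the 7 lower by more than 0.5 on the log2 scale after 17-DMAG in 4T1. The other members, Rrm2 and Cdc45, hold none, and Mcm3 holds a second match, not shown, that began 38 bases after the start. In Orc1 and Cdc6 the match began 27 and 138 bases before the RefSeq start, whereas in Cdt1, Mcm3 and E2f2 it began 32, 19 and 39 bases after it. The matches shown for Orc1, Cdc6 and Mcm3 are on the strand opposite the gene. Before and after depend on the annotation. By the GENCODE gene starts, the Orc1 and Cdc6 matches lie after the start and the E2f2 match before it.
Orc1, chr4:108579416-108579445, plus strand: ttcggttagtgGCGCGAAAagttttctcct
Cdc6, chr11:98908002-98908031, plus strand: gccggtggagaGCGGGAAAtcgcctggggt
Cdt1, chr8:122568036-122568064, plus strand: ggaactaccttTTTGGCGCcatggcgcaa
Mcm3, chr1:20820275-20820304, minus strand: aaacttccgtgGCGGGAAAacttgggaagt
E2f2, chr4:136172302-136172323, plus strand: gcggcatatagTTTGGCGCtaa

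E2F letters were found in 13 of the 32 members with a promoter (40.6%, Wilson 95% interval 25.5 to 57.7), namely Orc1, Cdc6, Cdt1, Mcm3, Mcm5, Mcm6, Mcm7, Gins3, Rfc3, Pola1, Pold1, Lig1 and E2f2. Per promoter the share was 34.2% of the 38, against 2.27% of all 32851 promoters and 3.81% of the promoters of tested genes. Of the 19 matches, 11 began before the RefSeq start site. With the 250 bases before the start alone, 8 members held a match (25.0%). CCAAT was found in 20 of the 32 members (62.5%), in 57.9% of member promoters and in 37.4% of all promoters. In a list of mitosis genes, E2F letters were found in 1 of 20 genes and the cell cycle homology letters TTTGAA or TTCGAA in 15 of 20. The latter were found in 8 of 32 members (23.7% of member promoters and 19.2% of all promoters).

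**Figure D1:**
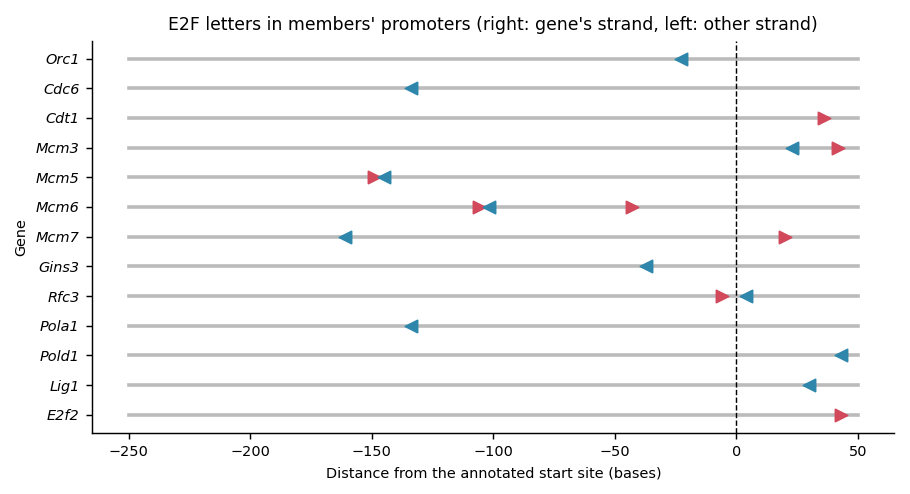
Positions of E2F letters in the promoters of the 13 members that hold them, in bases from the annotated start site (dashed line at 0); grey bars span the 300 bases searched, right-pointing triangles mark matches on the gene's strand and left-pointing triangles matches on the other strand. Mcm6 holds 3 matches, and in Cdt1, Mcm3, Pold1, Lig1 and E2f2 every match lies after the RefSeq start.

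Per kilobase of annotated exon, the members spanned a wide range in untreated 4T1. The highest levels were those of Rrm2, the regulated subunit of ribonucleotide reductase, at 3864 ± 68.0 normalized counts per kb (SD, n = 3), and of Pcna at 3197 ± 52.8. They were followed by the helicase subunits Mcm5 (2736 ± 89.4) and Mcm4 (2504 ± 21.6). The lowest were Gins2, a GINS subunit (157 ± 10.5), and the transcription factor E2f2 (103 ± 3.92). With the longest annotated transcript as the length, Pcna (5054 ± 83.5) stood above Rrm2 (4882 ± 86.0), so the order of these neighbours depends on the length used.

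Most of the replication genes were lower in 4T1 cells after 17-DMAG. Of the 39 members, 31 were called lower and 0 higher (edgeR's quasi-likelihood test, adjusted p under 0.05 over all 13507 genes tested), where 17.9% of all tested genes were called lower and 18.4% higher. No member was higher by an unadjusted p under 0.05 or by DESeq2 either. The median log2 fold change of the members was -0.29 against 0.00064 for all tested genes. The share of each library's counts that fell on members, leaving out the ribosomal transcript Rn45s, was 0.529, 0.539 and 0.542% in the untreated 4T1 libraries and 0.419, 0.415 and 0.408% in the treated ones before averaging. The fibroblast markers, 5 of 6 of them under 100 normalized counts in every library, were also lower in sum after 17-DMAG. Their sum went from 690.3 to 766 normalized counts untreated to 399 to 421 treated in 4T1, from 835 to 895 to 709.9 to 775 in 4T1R1 and from 919.8 to 1043 to 799 to 909 in 4T1R2. Their part in the result was not tested. In bulk RNA, fewer cells in S phase and less of each transcript per cell cannot be told apart.

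**Figure D2:**
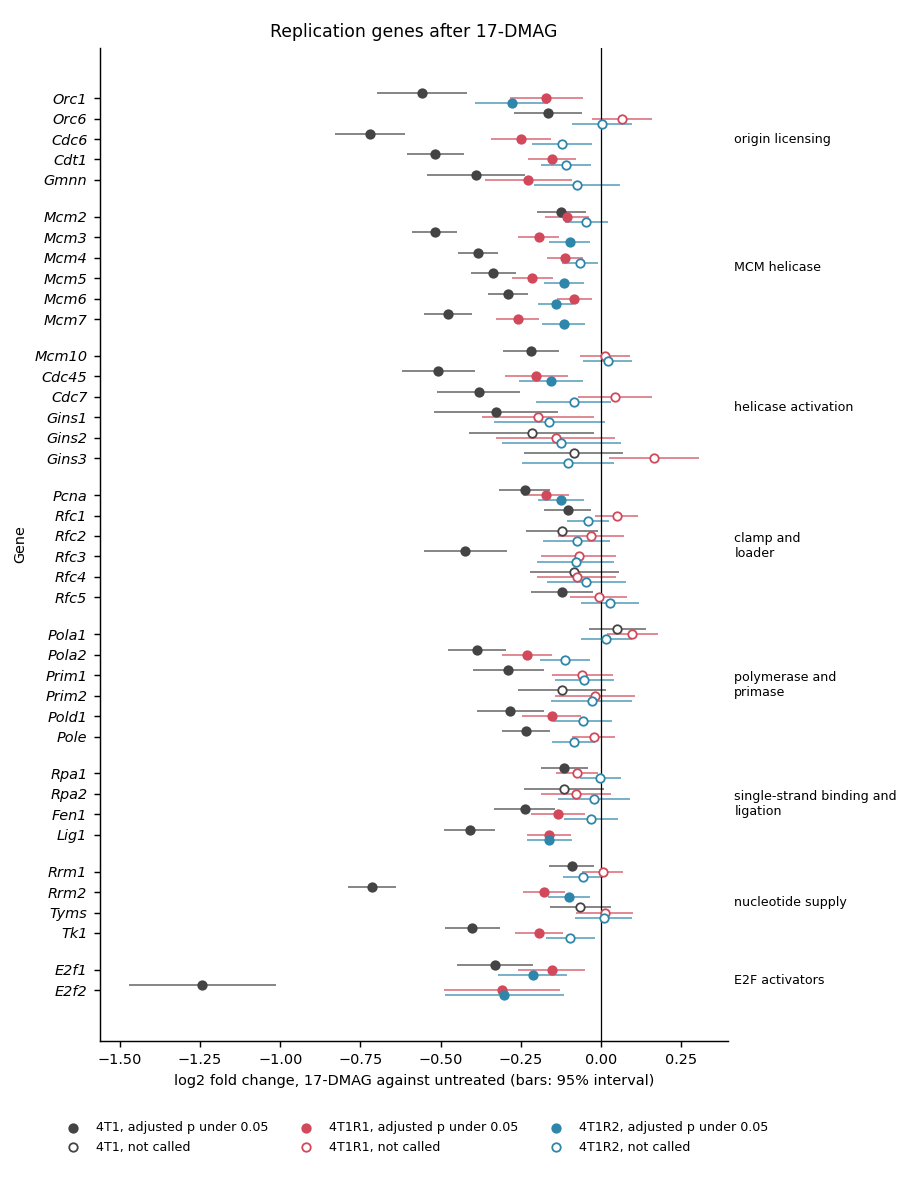
log2 fold change of each of the 39 members after 17-DMAG in 4T1 (grey), 4T1R1 (red) and 4T1R2 (blue), grouped by role, with 95% intervals; filled points had an adjusted p under 0.05. The 4T1 point lies to the left of the 4T1R1 point for all 39 members, and E2f2 has the largest decrease in every population.

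The genes of origin licensing were all called lower in 4T1 (5 of 5, against 17.9% of all tested genes), with a median log2 fold change of -0.52. Cdc6 (chr11:98907801-98923940), the ATPase that helps load the helicase, stood at 2384, 2322 and 2584 normalized counts in the untreated 4T1 libraries and at 1481 and 1473 after 17-DMAG, without overlap. Its log2 fold change was -0.72 (95% interval -0.83 to -0.61), so 60.8% of the untreated level remained. In 4T1R1 it went from 2396, 2523 and 2494 to 2029.5, 2046 and 2166, and in 4T1R2 from 2428, 2243 and 2506 to 2091, 2212 and 2302, with overlap in 4T1R2 only. The fold changes there were -0.25 (-0.34 to -0.15) and -0.12 (-0.22 to -0.028), the latter not called (adjusted p = 0.0895, edgeR). It was called under 3 of 26 alternatives, among them without untreated replicate 2 (-0.16) and without treated replicate 3 (-0.15). Cdt1, the loading factor that geminin inhibits, was at 3493, 3722 and 3537 normalized counts in the untreated 4T1 libraries and at 2474 and 2541 after 17-DMAG. It went from 4210.2, 4347 and 4154 to 3618, 3905 and 3919.6 in 4T1R1, and from 3614, 3717 and 3652 to 3359, 3292 and 3533 in 4T1R2. The groups were apart in each population, and the log2 fold changes were -0.52 (-0.60 to -0.43), -0.15 (-0.23 to -0.077) and -0.11 (-0.19 to -0.032) in 4T1, 4T1R1 and 4T1R2. The last was not called (adjusted p = 0.0577, edgeR) but was called under 8 of 26 alternatives, among them without treated replicate 3 (-0.14).

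Orc1, the largest subunit of the origin recognition complex and the one that comes and goes with the cell cycle, was at 854, 962 and 837 normalized counts in the untreated 4T1 libraries and at 616 and 582 after 17-DMAG. It was higher in the untreated resistant cells and went from 1361, 1304 and 1414 to 1195, 1199 and 1234 in 4T1R1 and from 1304, 1433 and 1312 to 1083, 1141 and 1109 in 4T1R2. Treated and untreated libraries did not overlap in any population, with log2 fold changes of -0.56 (-0.70 to -0.42), -0.17 (-0.28 to -0.057) and -0.28 (-0.39 to -0.16), and after 17-DMAG every resistant library still lay above every untreated 4T1 library. The call in 4T1R1 was lost without untreated replicate 3 or treated replicate 1 or 2 at -0.16 to -0.14. A call is given as lost where the adjusted p no longer passed with that library left out, beside the log2 fold change then found. Gmnn was called lower in 4T1 (-0.39) and in 4T1R1 (-0.23, lost without untreated replicate 1 at -0.15), and Orc6, which overlaps the far higher Vps35, in 4T1 alone (-0.16, lost without untreated replicate 1, treated replicate 3 or the averaged treated library at -0.17 to -0.11).

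All 6 subunits of the MCM helicase, the ring that unwinds DNA ahead of the fork, were called lower in 4T1 and in 4T1R1, and 4 of 6 in 4T1R2, where Mcm2 (-0.045) and Mcm4 (-0.064) were not. The shares of all tested genes called lower were 17.9% in 4T1, 14.3% in 4T1R1 and 4.35% in 4T1R2. Mcm3 was at 8382, 8524 and 8774 normalized counts in the untreated 4T1 libraries and at 5947 and 6003 after 17-DMAG. It went from 7874, 7586 and 7794 to 6656, 7106 and 6565 in 4T1R1 and from 6891, 6917 and 6754 to 6278, 6407 and 6530.4 in 4T1R2, with no overlap in any population. Its log2 fold changes were -0.52 (-0.59 to -0.45), -0.19 (-0.26 to -0.13) and -0.098 (-0.16 to -0.034), the last lost without untreated replicate 1, 2 or 3, treated replicate 1 or 2 or any of 2 libraries of other groups at -0.11 to -0.084. Mcm7 was at 5877, 6042 and 6198 normalized counts in the untreated 4T1 libraries and at 4318 and 4360.3 after 17-DMAG. In 4T1R1 Mcm7 moved from 4925, 4734 and 4674 to 4002, 3980.2 and 3993, and in 4T1R2 from 4523, 4820 and 4746 to 4407, 4277 and 4306. The log2 fold changes of Mcm7 were -0.48 (-0.55 to -0.40), -0.26 (-0.33 to -0.19) and -0.12 (-0.18 to -0.049), again without overlap, the last lost without untreated replicate 2 or 3 or treated replicate 2 at -0.11 to -0.097. Exons of Mcm7 overlap those of Cops6 and Ap4m1 on the other strand.

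Mcm5 was at 10514, 11119.7 and 11145 normalized counts in the untreated 4T1 libraries and at 8678 and 8645 after 17-DMAG. It went from 9231, 9706 and 9166 to 7882, 8361 and 7994 in 4T1R1 and from 9285, 9403 and 9028 to 8380, 8422 and 8773 in 4T1R2, apart in each. Its log2 fold changes were -0.34 (-0.40 to -0.27), -0.21 (-0.28 to -0.15) and -0.12 (-0.18 to -0.053), the last lost without untreated replicate 2 or treated replicate 1 or 2 at -0.11 to -0.10. Mcm2, the subunit with the smallest change in 4T1, was at 5791, 5992 and 5656 normalized counts in the untreated 4T1 libraries and at 5412 and 5257 after 17-DMAG. In 4T1R1 it went from 6116, 6411 and 6021 to 5613, 5920.5 and 5690.1, and in 4T1R2 from 6849.7, 6595 and 6651 to 6726, 6224 and 6534. The differences for Mcm2 were -0.12 (-0.20 to -0.047), -0.11 (-0.17 to -0.039) and -0.045 (-0.11 to 0.022), with overlapping groups in 4T1R2 only. The Mcm2 call in 4T1 was lost without untreated replicate 2 or treated replicate 3 at -0.11 to -0.10, and that in 4T1R1 was lost without untreated replicate 2 or treated replicate 1 or 3 at -0.10 to -0.080. Mcm4 (-0.38) and Mcm6 (-0.29) lay between Mcm3 and Mcm2 in 4T1, and the call for Mcm6 in 4T1R1 (-0.083) was lost without untreated replicate 1 or treated replicate 3 at -0.069 to -0.065.

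Among the genes of helicase activation, 4 of 6 were called lower in 4T1, against 17.9% of all tested genes. Only Cdc45, which joins MCM and GINS in the working helicase, was called lower in all 3 populations (-0.51, -0.20 and -0.16). The last was lost without untreated replicate 2 or 3 or treated replicate 1 or 2 at -0.16 to -0.12. Cdc7, the kinase that fires licensed origins, was at 1600.2, 1554 and 1468 normalized counts in the untreated 4T1 libraries and at 1183 and 1182 after 17-DMAG. It went from 1249, 1302 and 1411 to 1428, 1387 and 1268 in 4T1R1 and from 1267, 1371 and 1195 to 1146, 1240.3 and 1221 in 4T1R2. Its groups were apart in 4T1 and overlapped in both resistant populations, with log2 fold changes of -0.38 (-0.51 to -0.25), 0.044 (-0.071 to 0.16) and -0.085 (-0.20 to 0.032). Gins2 was at 620.4, 694 and 617 normalized counts in the untreated 4T1 libraries and at 560.5 and 547 after 17-DMAG. In 4T1R1 Gins2 moved from 517, 510 and 412 to 426, 486 and 392, and in 4T1R2 from 463, 499 and 423 to 427, 386 and 459. The Gins2 groups were apart in 4T1 but the difference did not pass the threshold (-0.22, -0.41 to -0.021, adjusted p = 0.0774, edgeR), and its exons overlap those of Gse1 on the other strand. Mcm10 (-0.22) and Gins1 (-0.33) were called lower in 4T1 only, and Gins3 in no population.

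The sliding clamp Pcna, which tethers polymerases to DNA, was at 7672, 7546 and 7799.8 normalized counts in the untreated 4T1 libraries and at 6704 and 6304 after 17-DMAG. It went from 7410.1, 6814 and 7144 to 6309, 6635 and 6019 in 4T1R1 and from 6762, 7088 and 6744 to 6412, 6427 and 6045 in 4T1R2. Each population's groups were apart and the call was lower in all 3, with log2 fold changes of -0.24 (-0.32 to -0.16), -0.17 (-0.24 to -0.10) and -0.12 (-0.20 to -0.052), the last lost without untreated replicate 2 or treated replicate 3 at -0.10 to -0.096. Of the 5 RFC subunits that load the clamp, Rfc3 fell the most in 4T1 (-0.42, -0.55 to -0.29), and none was called in the resistant populations. There 14.3% (4T1R1) and 4.35% (4T1R2) of all tested genes were called lower, so few calls among 5 genes would match those shares. In 4T1 the call of Rfc1 (-0.10) was lost without untreated replicate 1 or 3 or treated replicate 3 at -0.10 to -0.077. The call of Rfc5 (-0.12) was lost without untreated replicate 2 or 3 or treated replicate 3 at -0.12 to -0.077. Rfc2 (-0.12), not called, was called under 3 of 26 alternatives, among them without untreated replicate 1 (-0.18). Rfc5 itself was at 2523, 2649 and 2599 normalized counts in the untreated 4T1 libraries and at 2461 and 2294 after 17-DMAG. In 4T1R1 it went from 1996, 1961 and 2029.9 to 1927, 2077 and 1954, and in 4T1R2 from 1867, 1733 and 1726 to 1847, 1780.4 and 1818. Rfc5 libraries from the resistant cells all lay under those from 4T1, treated or not, and Rfc5 exons overlap those of Wsb2 on the other strand.

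Of the polymerase and primase genes, 4 of 6 were called lower in 4T1 (17.9% of all tested genes). In 4T1R2 0 were, near the 4.35% of all tested genes, and in 4T1R1 2 were, where that share was 14.3%. Those 2 were Pola2 and Pold1, the catalytic subunit of DNA polymerase delta (-0.15, lost without untreated replicate 1 at -0.13). Pola2, the regulatory subunit of DNA polymerase alpha, was at 2663, 2538 and 2809 normalized counts in the untreated 4T1 libraries and at 2023 and 2063 after 17-DMAG. It went from 3477, 3511 and 3331 to 2835, 2945 and 3022 in 4T1R1 and from 3200.4, 3162 and 3242 to 2960.4, 2958 and 2969 in 4T1R2. The groups were apart in each population, with log2 fold changes of -0.39 (-0.48 to -0.30), -0.23 (-0.31 to -0.15) and -0.11 (-0.19 to -0.034). The last was not called (adjusted p = 0.0541, edgeR) but was called under 9 of 26 alternatives, among them DESeq2 (-0.11). Prim1, the catalytic primase subunit, was at 1371, 1357 and 1325 normalized counts in the untreated 4T1 libraries and at 1109 and 1102 after 17-DMAG. In 4T1R1 Prim1 moved from 1728, 1560.2 and 1593 to 1534, 1531 and 1628, and in 4T1R2 from 1985, 2084 and 1957 to 1946, 1921 and 1944. Its change was -0.29 (-0.40 to -0.18) in 4T1, -0.057 (-0.15 to 0.038) in 4T1R1 and -0.051 (-0.14 to 0.041) in 4T1R2, with overlap in 4T1R1 only and no call in either resistant population. Pola1, the catalytic subunit of polymerase alpha, had 0.051 (-0.038 to 0.14) in 4T1 and was the only member above 0 there.

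Lig1, the ligase that joins Okazaki fragments, was at 4598, 4754 and 4615 normalized counts in the untreated 4T1 libraries and at 3569.6 and 3437 after 17-DMAG. It went from 4505, 4574 and 4499.9 to 4085, 4185 and 3869 in 4T1R1 and from 4335, 4135 and 4253 to 3795, 3873 and 3714 in 4T1R2. All groups were apart and Lig1 was called lower in each population, with log2 fold changes of -0.41 (-0.49 to -0.33), -0.16 (-0.23 to -0.092) and -0.16 (-0.23 to -0.091). The flap nuclease gene Fen1 was called lower in 4T1 (-0.24) and in 4T1R1 (-0.13, lost without untreated replicate 1 or treated replicate 1 at -0.12). Rpa1, the large subunit of the single-strand binding protein, was called lower in 4T1 (-0.11, lost without untreated replicate 3, treated replicate 3 or the averaged treated library at -0.12 to -0.079). Rpa2 was not called (-0.11), though it was under 2 of 26 alternatives, among them without untreated replicate 1 (-0.17).

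Among the 4 genes of nucleotide supply, Rrm2 changed strongly and Tyms was called in no population. Rrm2 (chr12:24708241-24714146) was at 10496, 10860 and 10764 normalized counts in the untreated 4T1 libraries and at 6675 and 6379 after 17-DMAG. Its fold change of -0.71 (95% interval -0.79 to -0.64) left 61% of the untreated level (edgeR, adjusted p = 1.78e-19). In 4T1R1 it went from 9200, 8459.9 and 9229 to 8029.9, 8136 and 7599 (-0.18, -0.24 to -0.11) and in 4T1R2 from 9771, 9261 and 9385 to 8755, 8984 and 8798 (-0.099, -0.16 to -0.033), without overlap. The call in 4T1R2 was lost without untreated replicate 1 or 3, treated replicate 1, 2 or 3 or any of 3 libraries of other groups at -0.11 to -0.076. Tyms, thymidylate synthase, was at 2647, 2863 and 2893 normalized counts in the untreated 4T1 libraries and at 2647 and 2716 after 17-DMAG. It went from 2094, 2026 and 1984 to 1959.5, 2109 and 2093 in 4T1R1 and from 1977, 2055 and 1902 to 2022, 1939 and 2008 in 4T1R2. Its groups overlapped in all 3 populations, and the differences were -0.064 (-0.16 to 0.031), 0.013 (-0.076 to 0.10) and 0.0088 (-0.081 to 0.098). Tk1, thymidine kinase of the salvage pathway, was at 4572, 4556 and 4670.3 normalized counts in the untreated 4T1 libraries and at 3706 and 3245 after 17-DMAG. In 4T1R1 Tk1 moved from 4440.2, 4395 and 4323 to 3839.5, 3884 and 3792, and in 4T1R2 from 4350.4, 4227 and 4072 to 4013, 3929 and 3908. Tk1 groups did not overlap, with fold changes of -0.40 (-0.49 to -0.32), -0.19 (-0.27 to -0.12) and -0.095 (-0.17 to -0.019), the last not called (adjusted p = 0.102, edgeR). Rrm1, the large reductase subunit, changed by -0.092 in 4T1, its only call, lost without untreated replicate 2 or treated replicate 3 at -0.063 to -0.054.

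The activating factors E2f1 and E2f2 were called lower in every population. E2f2 (chr4:136172394-136196057) had the largest change of all members and was at 484, 521 and 508 normalized counts in the untreated 4T1 libraries and at 221 and 203 after 17-DMAG. Its log2 fold change was -1.24 (95% interval -1.47 to -1.01), which left 42.2% of the untreated level (edgeR, adjusted p = 5.3e-12). In 4T1R1 it went from 668, 576 and 552 to 556, 479 and 411 and in 4T1R2 from 512, 571 and 496 to 441, 395 and 444, with overlap in 4T1R1 only. The fold changes were -0.31 (-0.49 to -0.13), lost without untreated replicate 1 or treated replicate 3 at -0.22 to -0.21, and -0.30 (-0.49 to -0.12), lost without untreated replicate 2 or treated replicate 1 or 2 at -0.33 to -0.24. E2f1 was at 1537, 1632 and 1747 normalized counts in the untreated 4T1 libraries and at 1345 and 1258 after 17-DMAG. It went from 1689, 1723 and 1731 to 1567, 1528 and 1528 in 4T1R1 and from 1549.9, 1427 and 1457 to 1335, 1184 and 1315 in 4T1R2. The E2f1 groups were apart throughout, with log2 fold changes of -0.33 (-0.45 to -0.21), -0.15 (-0.26 to -0.049) and -0.21 (-0.32 to -0.11). The call of E2f1 in 4T1R1 was lost without untreated replicate 2 or 3 or treated replicate 2 or 3 at -0.15, and that in 4T1R2 was lost without untreated replicate 1 or treated replicate 2 at -0.18 to -0.16.

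**Figure D3:**
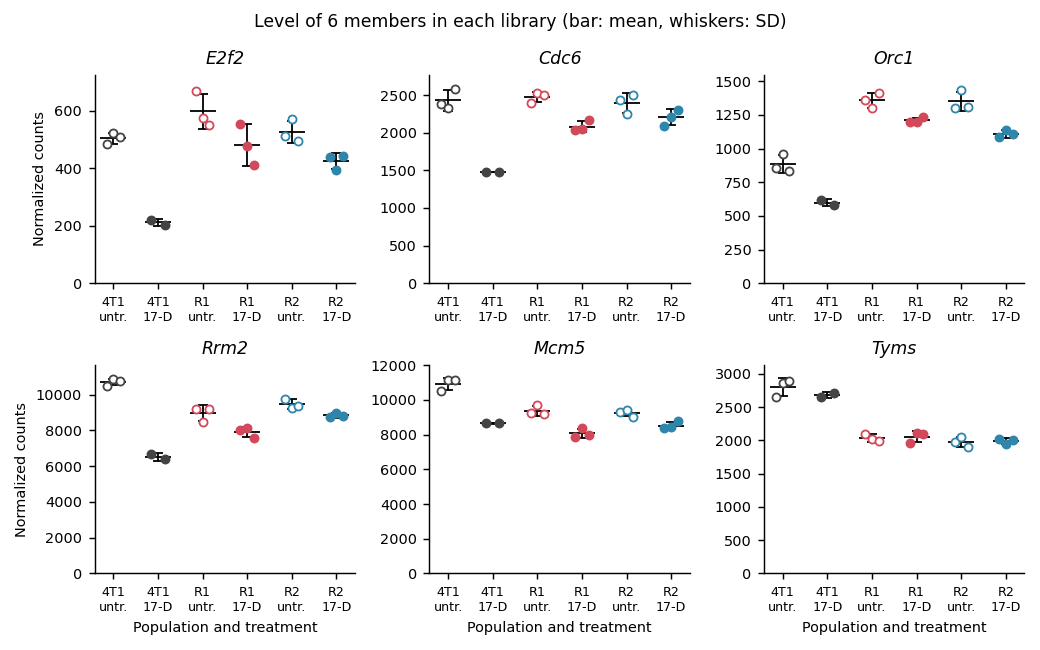
Normalized counts of E2f2, Cdc6, Orc1, Rrm2, Mcm5 and Tyms in each library of 4T1, 4T1R1 (R1) and 4T1R2 (R2), untreated (open points) and after 17-DMAG (filled points), with the mean and SD of each group and axes from 0. E2f2 in treated 4T1 lies at 203 and 221, under every other library, while Tyms in treated 4T1 (2647 and 2716) overlaps untreated 4T1.

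Of the 31 calls in 4T1, 25 were lower under each of the 26 alternative settings, and 6 small ones were not. Orc6, Mcm2, Rfc1, Rfc5, Rpa1 and Rrm1 were each lost without treated replicate 3, at log2 fold changes between -0.17 and -0.054. Gins2, Gins3, Rfc2, Rfc4, Pola1, Prim2, Rpa2 and Tyms were not called in any population, though with total counts alone as the scaling all of them but Pola1 were called lower in 4T1, with Tyms at -0.18.

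Fewer members changed in the resistant populations, and none outside those called in 4T1. In 4T1R1, 20 of 39 members were called lower and 0 higher (background 14.3% lower and 13.9% higher), with a median log2 fold change of -0.11. In 4T1R2, 11 of 39 were called lower and 0 higher (background 4.35% lower and 6.18% higher), with a median of -0.084. All 20 members lower in 4T1R1 were among the 31 lower in 4T1, and all 11 lower in 4T1R2 were among those 20. These 11 were Orc1, Mcm3, Mcm5, Mcm6, Mcm7, Cdc45, Pcna, Lig1, Rrm2, E2f1 and E2f2. How often calls nest in this way over all tested genes was not counted. DESeq2 called 20 and 13 members lower, and 0 higher in either. By an unadjusted p under 0.05, 0 members were higher in 4T1R2, and Gins3 (0.17) and Pola1 (0.098) were higher in 4T1R1.

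Leaving out single libraries changed these counts. In 4T1R1, 12 of the 20 were called under every alternative. Orc1, Gmnn, Mcm2, Mcm6, Pold1, Fen1, E2f1 and E2f2 were each lost under at least 1, at log2 fold changes between -0.22 and -0.049. Gins3 (0.20) and Pola1 (0.13) were called higher without untreated replicate 3, Gins3 (0.21) without treated replicate 2 and Pola1 (0.14) without treated replicate 3. In 4T1R2, Orc1, Mcm6 and Lig1 were called under every alternative. The count of 11 became 6 without untreated replicate 2, 7 without untreated replicate 3, 6 without treated replicate 1 and 4 without treated replicate 2.

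The response to 17-DMAG itself differed between populations when the difference was tested. For 19 members the change in 4T1R1 was more positive than in 4T1 and for 0 more negative (background 9.16% and 9.08%), and for 4T1R2 the counts were 22 and 0 (background 9.62% and 8.16%). No member passed in the negative direction by an unadjusted p under 0.05 or by DESeq2. These tests share the 4T1 libraries. The median difference of the members was 0.18 for 4T1R1 and 0.21 for 4T1R2. E2f2 differed by 0.93 (0.64 to 1.23) and 0.94 (0.65 to 1.24), and Rrm2 by 0.54 (0.44 to 0.63) and 0.61 (0.51 to 0.71). For Cdc6 the difference was 0.47 (0.33 to 0.61) in 4T1R1 and 0.60 (0.45 to 0.74) in 4T1R2. Members for which it did not pass in either include Mcm2 at 0.016 (-0.086 to 0.12) and 0.078 (-0.024 to 0.18), Pcna at 0.065 (-0.043 to 0.17) and 0.11 (0.0054 to 0.22) and E2f1 at 0.18 (0.019 to 0.34) and 0.12 (-0.043 to 0.28).

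The difference held under every alternative for 15 of the 19 members and 15 of the 22. In 4T1R1, Tk1 (0.21) was lost without 4T1 treated replicate 3 at 0.12, and Rfc1 (0.15) was lost without 4T1 untreated replicate 1, 4T1 treated replicate 3, 4T1R1 untreated replicate 1 or 4T1R1 treated replicate 1 at 0.12 to 0.14. There Orc6 (0.23) was lost without 4T1 untreated replicate 1, 4T1 treated replicate 3 or the averaged treated library of 4T1 at 0.18 to 0.24, and Prim1 (0.23) was lost without 4T1 treated replicate 3, the averaged treated library of 4T1, 4T1R1 untreated replicate 2 or 4T1R1 treated replicate 3 at 0.20 to 0.23. In 4T1R2, Orc1 (0.28) was lost without 4T1 untreated replicate 2, 4T1 treated replicate 3, 4T1R2 untreated replicate 1 or 4T1R2 treated replicate 2 at 0.22 to 0.26. Likewise Gmnn (0.31) was lost without 4T1 untreated replicate 1, the averaged treated library of 4T1 or 4T1R2 treated replicate 2 at 0.25 to 0.30, Rfc3 (0.34) was lost without the averaged treated library of 4T1 at 0.29, and Prim1 (0.24) was lost without 4T1 treated replicate 3 or the averaged treated library of 4T1 at 0.24. Further, Pold1 (0.23) was lost without 4T1 untreated replicate 2, 4T1 treated replicate 3 or 4T1R2 treated replicate 3 at 0.18 to 0.20, Pole (0.15) was lost without 4T1 untreated replicate 2, 4T1 treated replicate 3, the averaged treated library of 4T1, 4T1R2 untreated replicate 1 or 3 or 4T1R2 treated replicate 1 or 2 at 0.13 to 0.15, and Fen1 (0.21) was lost without 4T1 untreated replicate 3, the averaged treated library of 4T1 or 4T1R2 treated replicate 3 at 0.15 to 0.20. Mcm5 (0.12) and Pola2 (0.16) did not pass in 4T1R1 but each passed there under 8 of 26 alternatives, among them DESeq2 (0.13 and 0.16).

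Members were called lower both with and without E2F letters. In 4T1, 11 of the 13 members with the letters were called lower, with a median log2 fold change of -0.42, and 16 of the 19 with a promoter but no such letters, with a median of -0.22. Of the 7 members with no promoter listed, 4 were called lower (median -0.23). In 4T1R1 the counts were 10 of 13 and 8 of 19, and in 4T1R2 7 of 13 and 4 of 19. Of all tested genes, 17.9% were called lower in 4T1, 14.3% in 4T1R1 and 4.35% in 4T1R2. Changes of genes outside the members were not split by these letters. Gins3 and Pola1 held E2F letters and were not called, while Rrm2, which held CCAAT and none of the E2F letters in the sequence shown above, had the largest decrease after E2f2 and Cdc6.

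Before any treatment, the resistant populations differed from 4T1 in single members and not in 1 direction. In 4T1R1, 11 members were called higher and 16 lower (background 25.2% higher and 27.5% lower), with a median log2 fold change of -0.041. In 4T1R2, 8 were higher and 18 lower (background 25.6% and 26.9%), with a median of -0.063. The share of members called lower was above the background in both, whereas the share called higher was close to it in 4T1R1 and under it in 4T1R2, and both comparisons share the untreated 4T1 libraries. Higher in both were Orc1, Mcm2, Mcm10, Rfc4, Pola2, Prim1 and Rpa1, of which Rfc4 overlaps the far higher Eif4a2. The summed epithelial markers differed as well, at 77556 to 78660 normalized counts in untreated 4T1, 51840 to 54296 in 4T1R1 and 60075 to 61248 in 4T1R2, and their part in these differences was not tested. Lower in both were 14 members, among them 5 of the 6 MCM subunits, Tyms, Gins2, Rrm2, Pcna and Rfc5. Of these calls, that of Mcm6 in 4T1R1 was lost under 19 of 26 alternatives, and that of Mcm4 under 2 of 26 in each population. The share of all tested genes called in the same direction in both was not counted.

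**Figure D4:**
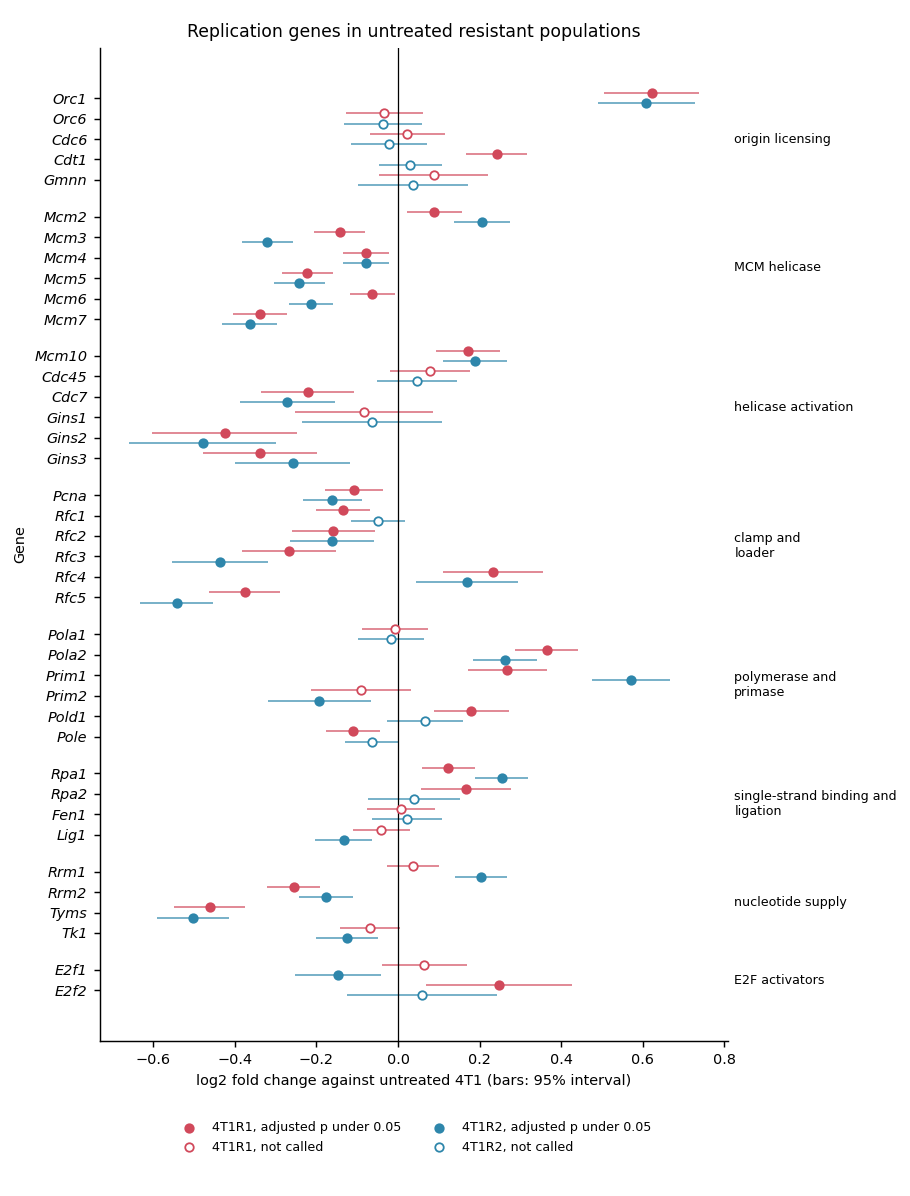
log2 fold change of each member in untreated 4T1R1 (red) and untreated 4T1R2 (blue) against untreated 4T1, grouped by role, with 95% intervals; filled points had an adjusted p under 0.05. Orc1 lies near 0.6 in both, whereas Tyms, Gins2 and Rfc5 lie farthest below 0.

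Orc1 had the largest increase, 0.62 (95% interval 0.51 to 0.74) in 4T1R1 and 0.61 (0.49 to 0.73) in 4T1R2, or 154% and 152% of its 4T1 level, with no overlap of libraries. Prim1 was raised by 0.27 (0.17 to 0.36) and 0.57 (0.48 to 0.67), and Pola2 by 0.36 (0.29 to 0.44) and 0.26 (0.18 to 0.34). Mcm2 rose by 0.089 (0.021 to 0.16) and 0.21 (0.14 to 0.27) while the other MCM subunits were lower, Mcm7 at -0.34 (-0.40 to -0.27) and -0.36 (-0.43 to -0.30). The Mcm2 call in 4T1R1 was lost without 4T1 replicate 1 or 3 or 4T1R1 replicate 2 at 0.063 to 0.086. The change of Tyms was -0.46 (-0.55 to -0.37) and -0.50 (-0.59 to -0.41), at 72.6% and 70.6% of the 4T1 level. That of Rfc5 was -0.38 (-0.46 to -0.29) and -0.54 (-0.63 to -0.45), and that of Gins2 -0.43 (-0.60 to -0.25) and -0.48 (-0.66 to -0.30). Cdc6, at 0.023 (-0.070 to 0.12) and -0.022 (-0.12 to 0.072), was called in neither. E2f2 was called higher in 4T1R1 (0.25, 0.068 to 0.43), a call lost without 4T1 replicate 1 or 4T1R1 replicate 1 at 0.16 to 0.22, and E2f1 lower in 4T1R2 (-0.15, -0.25 to -0.041), lost without 4T1 replicate 3 or 4T1R2 replicate 2 or 3 at -0.13 to -0.098. Pcna was lower in both (-0.11 and -0.16), the former lost without 4T1 replicate 3 or 4T1R1 replicate 2 at -0.095 to -0.076. Among the small calls in 4T1R1, Rfc2 (-0.16) was lost without 4T1 replicate 3 at -0.11, Rpa2 (0.17) was lost without 4T1 replicate 1 or 4T1R1 replicate 1 at 0.11 to 0.13, and Mcm6 (-0.063) was lost without 4T1 replicate 1 or 3, 4T1R1 replicate 2 or 3 or any of 9 libraries of other groups at -0.063 to -0.050. In 4T1R2, Mcm4 (-0.078) was lost without 4T1R2 replicate 1 at -0.060, Rfc2 (-0.16) was lost without 4T1 replicate 3 or 4T1R2 replicate 3 at -0.13 to -0.12, Rfc4 (0.17) was lost without 4T1 replicate 1 or 4T1R2 replicate 2 at 0.12 to 0.15, and Prim2 (-0.19) was lost without 4T1 replicate 3 or 4T1R2 replicate 3 at -0.16 to -0.13.

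Between the untreated resistant populations, 6 members were higher and 9 lower in 4T1R2 than in 4T1R1 (background 19.7% higher and 19% lower), with a median of -0.042. Prim1 (0.30, 0.21 to 0.40) and Rrm1 (0.17, 0.10 to 0.23) were the most raised, and E2f1 (-0.21, -0.32 to -0.11) and Cdt1 (-0.21, -0.29 to -0.14) the most lowered. Without 4T1R1 replicate 1 the count of lower members was 5. Here Rfc3 (-0.17) was lost without 4T1R1 replicate 1 or 3 or 4T1R2 replicate 1 at -0.16 to -0.14, Lig1 (-0.093) was lost without 4T1R1 replicate 1 or 2 or 4T1R2 replicate 2 or 3 at -0.096 to -0.075, and Pola2 (-0.10) was lost without 4T1R1 replicate 1 or 2 or 4T1R2 replicate 1 or 2 at -0.10 to -0.088. Also Pold1 (-0.11) was lost without 4T1R1 replicate 1 or 2, 4T1R2 replicate 2 or 3 or any of 4 libraries of other groups at -0.11 to -0.092, Rfc1 (0.086) was lost without 4T1R1 replicate 1 or 2 or 4T1R2 replicate 1 or 2 at 0.069 to 0.079, and Rrm2 (0.080) was lost without 4T1R1 replicate 2, 4T1R2 replicate 1 or 3 or any of 6 libraries of other groups at 0.040 to 0.085.

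Genes outside the 39 members were read from lists of related function, with values given for genes of large change among those called. Of 48 other replication genes, 25 were called lower and 7 higher in 4T1 after 17-DMAG (background 17.9% lower and 18.4% higher), with a median log2 fold change of -0.16. Timeless, of the fork protection complex (-0.70), Chaf1b, of the histone chaperone CAF-1 (-0.59), and Uhrf1, which maintains DNA methylation (-0.53), changed the most. In 4T1R1 the counts were 9 lower and 11 higher (background 14.3% and 13.9%), where the origin recognition subunit Orc4 rose by 0.41 and Mcm9 by 0.31 and Rnaseh2c, of ribonuclease H2, changed by -0.30. In 4T1R2 they were 3 lower and 2 higher, near the 4.35% and 6.18% of all tested genes, and 1 to 3 lower (1 without treated 4T1R2 replicate 3) and 1 to 2 higher with single libraries left out, led by Rnaseh2b (-0.23), Umps (0.22) and Timeless (-0.21). The call of Rnaseh2b was lost without any 1 of the 4T1R2 libraries except untreated replicate 3 (-0.26 to -0.13), and that of Timeless without untreated replicate 3 (-0.17) or treated replicate 3 (-0.18). The difference in response from 4T1 was more positive for 17 and more negative for 1 in 4T1R1 (background 9.16% and 9.08%). In 4T1R2 the counts were 22 and 2 (background 9.62% and 8.16%), with Timeless at 0.59 in 4T1R1 and 0.49 in 4T1R2. Without treated 4T1 replicate 3 the count of 22 was 14, and the counts of more negative genes ran from 1 to 3 with single libraries left out. In untreated cells 13 were higher and 17 lower in 4T1R1 than in 4T1, shares near those of all tested genes (25.2% and 27.5%), among them the uracil glycosylase gene Ung (-0.80) and the histone mRNA binding protein gene Slbp (-0.50). In 4T1R2 14 were higher and 17 lower (25.6% and 26.9% of all tested genes), among them Mtbp (-0.93), Dscc1 (-0.56) and the histone chaperone gene Asf1b (-0.51).

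Of the 34 G1/S regulators, 31 were tested, and in 4T1 9 were called higher and 9 lower after 17-DMAG (background 18.4% and 17.9%), with a median of -0.0065. Without treated replicate 3 these counts were 5 and 7. Cdkn1a, the kinase inhibitor p21, was lower in 4T1 (-1.03), 4T1R1 (-0.52) and 4T1R2 (-0.56). Ccne1, the cyclin E1 gene, fell in 4T1 (-0.62), and Ccnd2, the cyclin D2 gene, rose in 4T1 (0.51), 4T1R1 (0.28) and 4T1R2 (0.28). The retinoblastoma gene Rb1 rose in 4T1R1 (0.36), and its relative Rbl2 was lower in 4T1R2 (-0.25), a call lost without treated replicate 2 (-0.20). In untreated cells, Cdk6, a G1 kinase, was higher in 4T1R1 than in 4T1 (1.19), with Ccna2 (-0.53) and the repressor E2f8 (-0.53) lower. In 4T1R2, Myc (0.84) and Cdkn1b, the inhibitor p27 (0.45), were higher and E2f8 lower (-0.62).

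The 25 mitosis genes were split in direction after 17-DMAG. In 4T1, 8 were called higher and 6 lower (background 18.4% higher and 17.9% lower), with a median of 0.034. The largest changes were those of Cenpf, a kinetochore protein gene (0.67), Ccnb1, the cyclin B1 gene (0.35), and the kinase gene Aurka (0.35). In 4T1R1 3 were higher and 3 lower, near the shares of all tested genes (13.9% and 14.3%). In 4T1R2 2 were higher and 2 lower, also near those shares (6.18% and 4.35%). Cenpf was raised in both populations (0.46 and 0.29). With single libraries left out, 3 to 4 were higher and 1 to 4 lower in 4T1R1, where 1 was lower without untreated replicate 2 or treated replicate 2 and 2 without treated replicate 1, and 1 to 2 were higher and 1 to 2 lower in 4T1R2. Untreated 4T1R1 had 20 of the 25 lower than 4T1 and 1 higher (background 27.5% lower and 25.2% higher), with a median of -0.17. Untreated 4T1R2 had 17 lower and 0 higher (background 26.9% and 25.6%), with a median of -0.12. Ube2c, which marks cyclins for destruction (-0.47 and -0.34), and the kinase gene Plk1 (-0.42 and -0.33) led in both.

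**Figure D5:**
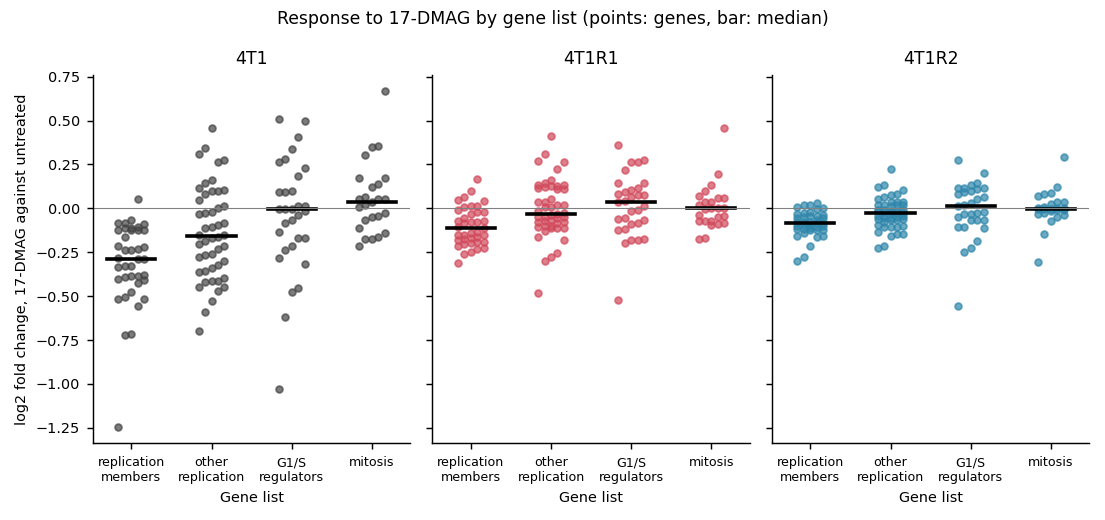
log2 fold change after 17-DMAG of the 39 members, 48 other replication genes, 31 G1/S regulators and 25 mitosis genes (1 point per gene, bar at the median) in 4T1, 4T1R1 and 4T1R2. The medians in 4T1 are -0.29, -0.16, -0.0065 and 0.034, in that order.

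Scaling by total counts alone moved the median of all genes by -0.11 in 4T1, and the members' median of -0.41 under it lay 0.29 below that shift. The direction of the member calls was kept in 4T1 (0 higher and 38 lower) and in 4T1R2 (0 and 18), while in 4T1R1 14 were lower and Gins3 and Pola1 were higher. Over all tested genes the split moved further, with 78.4% of calls lower in 4T1 against 49.3%, 35.8% against 50.8% in 4T1R1 and 75.8% against 41.3% in 4T1R2.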

How the data were processed

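RNA from 4T1, 4T1R1 and 4T1R2 cells was sequenced from libraries depleted of ribosomal RNA and made with a protocol that retains strand. The authors deposited raw counts per gene, made with bcl2fastq 2.20, STAR and featureCounts of Subread 1.6.2 on the mouse build mm10 with UCSC annotation, with no normalization. The strand setting of the counting is not given in the sources used here. Genes were tested with edgeR 4.0.16 (R 4.3.3): libraries were scaled by the trimmed mean of M values, low genes were removed with filterByExpr, which left 13507, and a quasi-likelihood model with 1 mean for each of the 6 groups was fitted to 17 libraries, after replicates 1 and 2 of 17-DMAG-treated 4T1 were averaged. Their counts gave a chi-square per gene of 1.0994, against 2.0416 to 2.2191 in the 17 other replicate pairs. P-values were adjusted over all tested genes by the Benjamini-Hochberg method, with a threshold of 0.05 and two-sided tests, and intervals are at 95%. The separate libraries of a group are described as biological replicates, with no statement of how the cultures were kept apart. Normalized counts are counts divided by scaled library size, at the mean depth of the libraries, and levels per kb use GENCODE exons of GRCm38.

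The 39 members and the other lists were chosen with earlier results of these data known. Values in each library are given for Mcm2, Mcm5, Cdc6, Cdt1, Pcna, Rrm2, Tyms, Tk1, E2f1 and E2f2 and for the 4 members with the largest change among those called in each of the 8 comparisons. Outside the members, the rule took the 3 genes per list and comparison with the largest change among those called, where the group with more had 100 normalized counts or more, and not all of them are printed. Wilson intervals cover counting error only. Alternatives were DESeq2 1.42.0, other scalings and filters, only the groups compared, a replicate block, 18 separate libraries, the counts without Rn45s, and leaving out each library. The script was tested on simulated counts. No deposited column was left out.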

Additional observations from a re-analysis of the deposited data

Results flagged for a closer look

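The response to 17-DMAG differed between 4T1 and a resistant population, by a test of the difference itself (edgeR's quasi-likelihood test, adjusted p under 0.05), for 19 members in 4T1R1 and 22 in 4T1R2, each with a change more positive than in 4T1. Among the members listed with values in each library, the difference in 4T1R1 was 0.93 on the log2 scale for E2f2, 0.54 for Rrm2, 0.47 for Cdc6, 0.43 for Cdc7, 0.39 for Orc1, 0.36 for Cdt1, 0.32 for Mcm3, 0.25 for Lig1, 0.23 for Prim1, 0.22 for Mcm7 and 0.21 for Tk1. In 4T1R2 it was 0.94 for E2f2, 0.61 for Rrm2, 0.60 for Cdc6, 0.42 for Mcm3, 0.41 for Cdt1, 0.36 for Mcm7, 0.31 for Tk1, 0.30 for Cdc7, 0.28 for Orc1 and for Pola2, 0.25 for Lig1, 0.24 for Prim1 and 0.22 for Mcm5. Both sets of values share the 4T1 libraries, of which the treated group had 2. Without treated 4T1 replicate 3 the values of Tk1 (0.12) and Prim1 in 4T1R1 and of Orc1 and Prim1 in 4T1R2 no longer passed, and the libraries that ended those of Orc1 and Prim1 are named above with the values.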

How the results depend on the processing

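The 67 called values of named members gave 1742 values under an alternative. Of these, 1685 kept their direction and their side of the threshold, 57 kept direction only and 0 reversed. Values of named members not called in the main fit were left out of this count. Some of them were called under an alternative, such as Cdt1 after 17-DMAG in 4T1R2 under 8 of 26. With total counts alone as the scaling, the median change of the members under 17-DMAG was -0.41 for 4T1, -0.078 for 4T1R1 and -0.13 for 4T1R2, 2 members were higher in 4T1R1 and 18 lower in 4T1R2, and 35 members differed in response in 4T1R1 (median 0.33, and 0.28 in 4T1R2). With at least 10 counts in every library, 1 member was higher in 4T1R1. Leaving out single libraries gave, for 17-DMAG, 25 to 31 members lower in 4T1 (median -0.30 to -0.28), 15 to 20 lower and 0 to 2 higher in 4T1R1 (-0.13 to -0.10) and 4 to 13 lower in 4T1R2 (-0.095 to -0.066), and 15 to 20 and 17 to 22 members with a different response (0.17 to 0.22 and 0.17 to 0.23). The median difference in 4T1R1 was 0.21 without the averaged treated 4T1 library and 0.22 without 4T1R1 untreated replicate 1. For untreated cells it gave 8 to 11 higher and 13 to 16 lower in 4T1R1 (-0.074 to -0.035), 7 to 8 and 15 to 18 in 4T1R2 (-0.078 to -0.038), and 4 to 6 and 5 to 10 between the resistant populations (-0.058 to -0.016). The median of -0.074 in untreated 4T1R1 was that without 4T1 replicate 2. Where 1 treated 4T1 library remained, it was assumed to vary like the other groups. Replicate numbers did not pair the samples: of 40 same-numbered pairs, 8 had deviations correlated above 0.1 (range -0.40 to 0.39). With a replicate block, calls over all genes went from 4913 to 4800 for 17-DMAG in 4T1, from 3812 to 3756 in 4T1R1 and from 1423 to 1386 in 4T1R2. The separate number series of 4T1R1 library names limits the comparisons of untreated 4T1R1 with the other populations. It also bears on the difference in response between 4T1R1 and 4T1, which draws on both series. With 2 to 3 libraries a group, a missed threshold does not show equal levels.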
